A study of Mus musculus with 12 samples.

Results

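Cholesterol synthesis and efflux was followed in mouse retina through 8 genes out of the 50559 in the count table. They were Abca1, Abcg1, Srebf1, Srebf2, Hmgcs1, Sqle, Nr1h2 and Mylip. The genes were picked by symbol, with earlier results of these data known, because Abca1 had been high in APB5+Mino against IgG+Mino retinas. That contrast is therefore described here without a test. All 8 genes passed the filter on low counts in every comparison. Each of the 4 groups held 3 RNA-Seq libraries from retinas of wild-type C57BL/6J mice aged 28 days. IgG mice were injected with 30 µg of IgG isotype control on day 1, and APB5 mice with 30 µg of APB5, a rat monoclonal antibody against mouse PDGFRβ, the receptor through which pericytes are recruited to growing vessels. IgG+Mino and APB5+Mino mice had the same injections and then minocycline, a tetracycline antibiotic, by daily intraperitoneal injection from day 5 to day 27, at a dose labelled as 45 mg/kg. The study counts mice as its replicates for these libraries, so P values measure the spread between mice, and the labels do not give their sex.

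Cholesterol is made from acetyl-CoA, and the membrane-bound factors SREBP-1 and SREBP-2, encoded by Srebf1 and Srebf2, switch on the genes of lipid and sterol synthesis when sterols in the endoplasmic reticulum run low. SREBP-2 drives the cholesterol enzymes, and SREBP-1c drives fatty acid enzymes. When sterols are in excess, oxysterols activate the liver X receptors (LXR) α and β, encoded by Nr1h3 and Nr1h2, which turn on the efflux pumps ABCA1 and ABCG1, Srebf1, and Mylip, whose product IDOL is a ubiquitin ligase that limits the uptake of lipoprotein. Hmgcs1 encodes the cytosolic HMG-CoA synthase, an early step of the pathway, and Sqle encodes squalene epoxidase, a later oxygen-requiring step. In the retina, sterol is both made locally and taken up from blood, and it is exchanged between cells on particles that carry apolipoprotein E.

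The upstream sequences of the efflux pump and of both synthesis enzymes are shown because their genes lay on opposite sides of zero in APB5 against IgG retinas. They were read from the GRCm39 genome, on the strand of the gene, with capitals for matches to a motif. The Abca1 stretch (chr4:53159901-53160050, minus strand) is the 150 bases before the start of transcription. Its capitals match the LXR element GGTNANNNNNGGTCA, a direct repeat with a gap between its arms, read from the other strand, from base −62 to −48 before the start.
Abca1: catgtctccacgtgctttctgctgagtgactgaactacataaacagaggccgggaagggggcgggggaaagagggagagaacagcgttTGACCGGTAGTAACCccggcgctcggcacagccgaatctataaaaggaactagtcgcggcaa
The Hmgcs1 stretch (chr13:120151732-120151914, plus strand) covers bases −250 to −68 of the canonical transcript, and 53 of its bases lie in annotated exons outside Hmgcs1. Its first capitals match the sterol regulatory element core TCACNCCAC and the other capitals match the NF-Y box CCAAT, read as ATTGG from the other strand. NF-Y is a general factor that binds next to SREBP at many sterol genes.
Hmgcs1: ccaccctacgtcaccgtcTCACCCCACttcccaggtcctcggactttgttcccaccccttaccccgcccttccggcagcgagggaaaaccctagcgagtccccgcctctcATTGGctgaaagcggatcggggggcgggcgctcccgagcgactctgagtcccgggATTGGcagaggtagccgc
The Sqle stretch (chr15:59186732-59186868, plus strand) covers bases −150 to −14 and holds 2 NF-Y boxes.
Sqle: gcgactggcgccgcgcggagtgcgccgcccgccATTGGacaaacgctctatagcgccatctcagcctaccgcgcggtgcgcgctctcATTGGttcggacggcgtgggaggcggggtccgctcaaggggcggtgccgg

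Motifs were searched on both strands from 250 bases before to 50 bases after the start of 21770 protein-coding genes. The LXR element was found in 33 of them (0.152%), and Abca1 was the 1 of the 8 genes with a match. Among 12 further LXR partners, targets and efflux genes, 0 had a match. The sterol regulatory element core was found in 1.34% of all promoters and in Hmgcs1 among the 8 genes. It was found in 0 of 18 further cholesterol synthesis enzymes and in 3 of 10 fatty acid synthesis genes (30%). An NF-Y box was found in 39.9% of all promoters. It was present in 5 of the 8 genes (62.5%) and in 14 of the 18 enzymes (77.8%). These matches describe letters in a window, do not overlap each other, and are not evidence of binding. A window without a match is not evidence that a gene lacks the element, since only these letters and bases were searched.

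Total counts ranged from 52740545 to 59411044 per library. Levels are given in CPM, the count of a gene scaled to a common library size with TMM factors, and 3 counts, taken as the floor, corresponded to 0.0448 to 0.0587 CPM. Across genes, which are not independent replicates, the Pearson r of log2 CPM was 0.954 to 0.990 for replicate pairs. APB5 replicate 3 stood apart from the other 11 libraries. Its score on the first principal component was 126.6, where the others lay between −53.8 and 25.6. Xist, the RNA of the inactive X chromosome, was counted 47210 times or more in 5 libraries, namely the 3 of IgG and replicate 3 of both APB5 and APB5+Mino, and 38 times or less in the other 7. Summed counts of the Y-linked Ddx3y, Eif2s3y, Kdm5d and Uty did not exceed 6 in the former and were 9336 or more in the latter. IgG+Mino and IgG retinas thus differed in both minocycline and this sign of sex, and these cannot be told apart. Without APB5 replicate 3, the same held for antibody and sex in APB5 against IgG. Where a fitted difference of a named gene or list turned or moved by over 1.5 times without APB5 replicate 3, both values are given.

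Markers of rods, inner retinal neurons and Müller glia were present in all libraries, and no marker of the 9 cell-type lists was at or below 3 counts in all 12. The 10 rod genes summed to 13351 CPM in APB5 replicate 3 and to 49807 to 76011 CPM elsewhere. The 14 microglia and macrophage genes summed to 74.8, 86.8 and 116 CPM in IgG, 58.0, 65.7 and 66.2 CPM in IgG+Mino, 113, 98.5 and 729 CPM in APB5, and 41.8, 36.6 and 40.5 CPM in APB5+Mino. The 9 pigment epithelium genes, led by Ttr, summed to 1039.8 CPM in APB5 replicate 3 and to at most 237 CPM in any other library. Lens genes, led by Cryaa, varied within groups, from 4.69 to 1789 CPM in IgG+Mino. Pdgfrb, which encodes the receptor the antibody binds, was at 15.5 ± 3.99 CPM in IgG against 23.2 ± 12.8 CPM in APB5 retinas (SD, n = 3), and its log2 fold change was 0.60, or 0.034 without APB5 replicate 3. The list medians of the log2 fold change, APB5 against IgG, were 1.97 for microglia and macrophages, 1.48 for pigment epithelium, 0.53 for 6 pericyte genes, 0.38 for 8 endothelial genes, 0.27 for 9 Müller glia genes, 0.062 for 10 inner retinal neuron genes, 0.0073 for 5 red blood cell genes, −0.57 for rods and −1.72 for 6 lens genes. Leaving out APB5 replicate 3, they were 0.21, −0.15, −0.010, 0.12, 0.16, 0.042, 0.35, −0.15 and −1.79 in the same order. In these bulk libraries, fewer cells of a type and less RNA per cell cannot be told apart, and the part of cell composition in the results below was not tested.

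**Figure D1:**
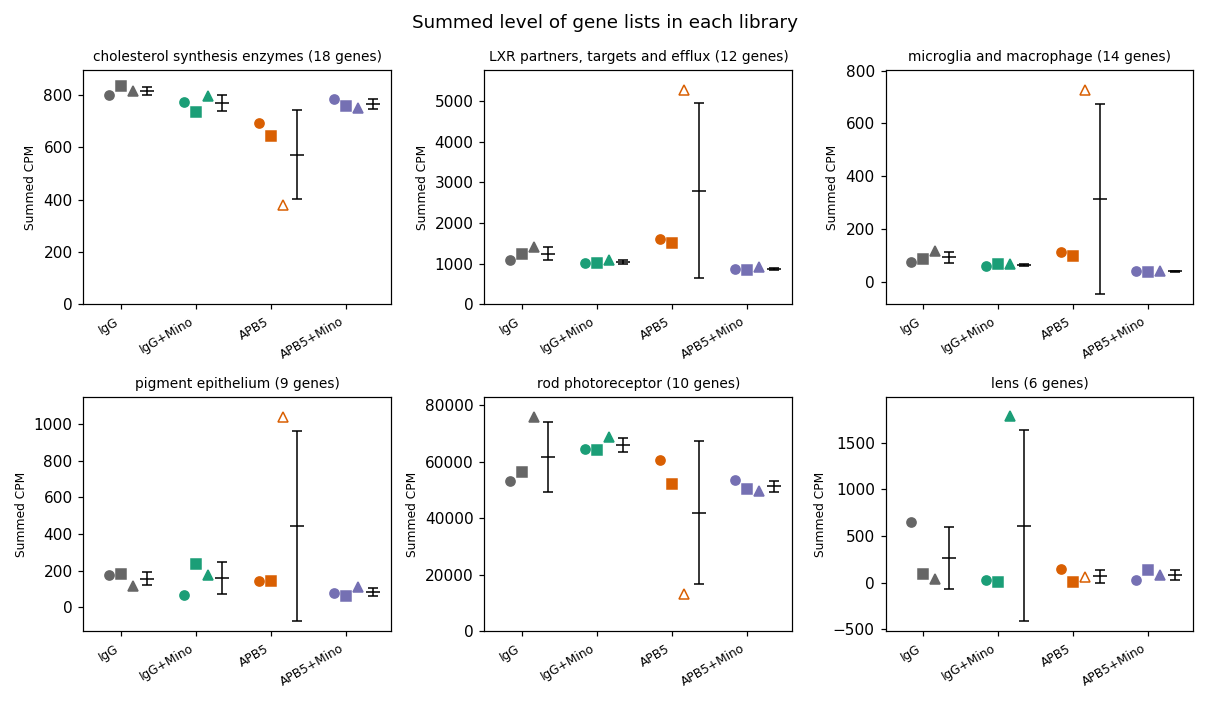
Summed CPM of 6 gene lists (y axis, linear) in the 12 libraries by group (x axis); circles, squares and triangles are replicates 1, 2 and 3, the open triangle is APB5 replicate 3, and bars to the right of the points are mean ± SD (n = 3). APB5 replicate 3 was lowest for the synthesis enzymes (379 CPM) and rod genes (13351 CPM) and highest for the LXR list (5275 CPM), microglia (729 CPM) and pigment epithelium (1039.8 CPM).

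All 8 genes were well expressed in IgG retinas. On the scale of mean CPM per kilobase of exon, the level was 30.0 ± 6.47 for Hmgcs1 and 21.6 ± 0.903 for Srebf1 (SD, n = 3). Abcg1 (16.4 ± 2.86), Nr1h2 (15.7 ± 3.65) and Srebf2 (12.9 ± 2.19) followed on the same scale, and these 3 did not differ beyond their spread. Mylip had 8.58 ± 0.108 and Sqle 6.23 ± 0.382 CPM per kilobase. Abca1 was the lowest of the 8, at 1.68 ± 0.332 CPM per kilobase. In APB5 retinas Abca1 had 8.06 ± 8.45 CPM per kilobase, and Srebf1 (27.2 ± 4.84) stood highest. By group means in CPM, Abca1 stood in the order IgG (20.7 ± 4.08), IgG+Mino (21.2 ± 1.67), APB5+Mino (50.4 ± 3.42) and APB5 (98.9 ± 104). The first pair and the last pair did not differ beyond their spread. Sqle stood in the order APB5 (35.9 ± 11.5), APB5+Mino (44.1 ± 0.745), IgG+Mino (47.5 ± 1.77) and IgG (55.4 ± 3.40), in which APB5 and APB5+Mino did not differ beyond their spread. Hmgcs1 stood in the same order, at 93.1 ± 39.6, 124 ± 1.49, 132 ± 12.7 and 158 ± 34.1 CPM, and no neighbours in it differed beyond their spread.

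Abca1 (chromosome 4, 53030787 to 53159900 on GRCm39, minus strand) encodes the transporter that loads cholesterol and phospholipid onto apolipoproteins. It had 21.1, 24.5 and 16.4 CPM in the IgG libraries and 19.5, 21.3 and 22.8 CPM in IgG+Mino. In APB5 it had 33.5, 44.7 and 218 CPM, and in APB5+Mino 50.5, 53.8 and 46.9 CPM. The APB5 libraries were above those of IgG, and APB5 replicate 3 was the highest of the 12. APB5+Mino above IgG+Mino is what chose the gene. In APB5 against IgG the log2 fold change was 2.28 (SE 0.70), a fold of 4.86, with an adjusted P = 0.664 from the quasi-likelihood test of edgeR after Benjamini-Hochberg correction. Without APB5 replicate 3 it was 0.92 (SE 0.20, adjusted P = 0.405 by the same test of edgeR). In the contrast that chose the gene, APB5+Mino against IgG+Mino, the log2 fold change was 1.25 (SE 0.096), a fold of 2.38. APB5+Mino and APB5 overlapped for Abca1. The log2 fold change between them was −1.0 (SE 0.68) with the 3 APB5 libraries and 0.36 (SE 0.13) without APB5 replicate 3, so the direction turned with that library. IgG+Mino and IgG overlapped too, with a log2 fold change of 0.035 (SE 0.17), or 1.34 when adjusted for the level of Xist. That adjustment draws on APB5 replicate 3, the only APB5 library high in Xist.

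**Figure D2:**
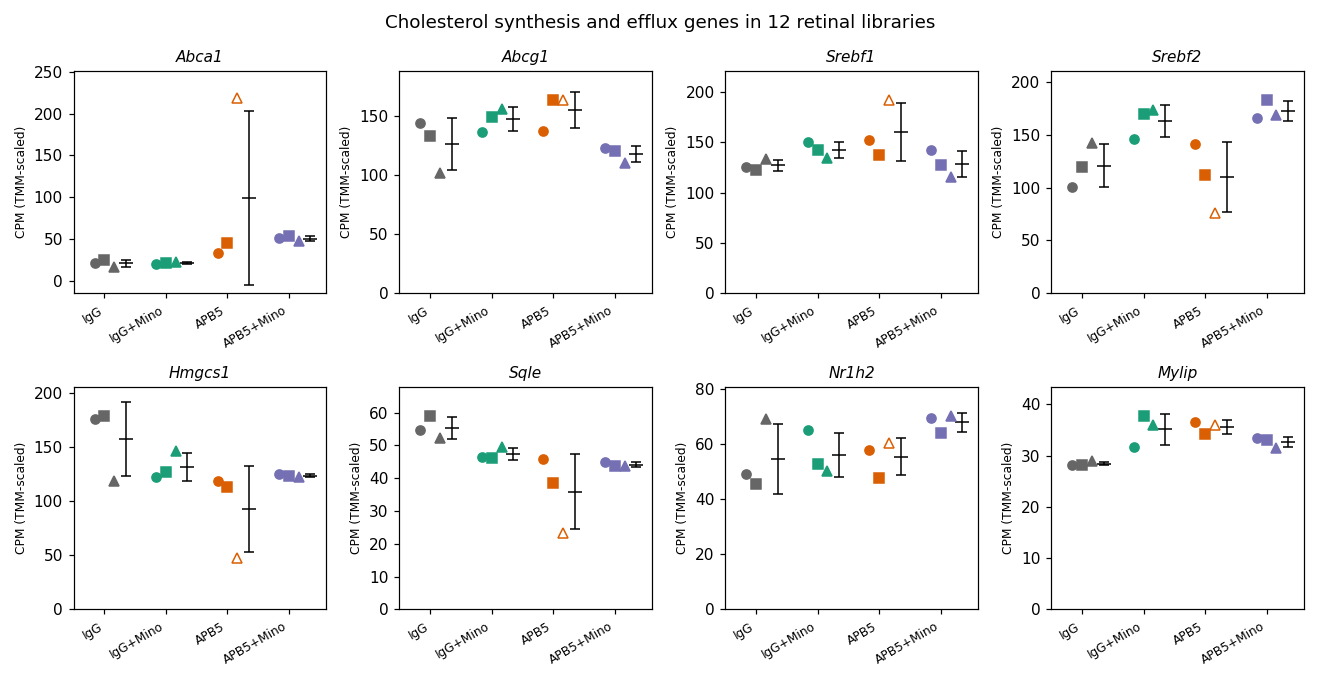
TMM-scaled CPM (y axis, linear) of the 8 genes in each of the 12 libraries by group (x axis); circles, squares and triangles are replicates 1, 2 and 3, the open triangle is APB5 replicate 3, and bars are mean ± SD (n = 3). Abca1 was at least 33.5 CPM in the APB5 and at most 24.5 CPM in the IgG libraries, and APB5 replicate 3 was the lowest library for Hmgcs1, Sqle and Srebf2.

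The comparison of APB5 with IgG retinas asked what differed by 4 weeks in mice given the antibody. Every IgG library was high in Xist, but in APB5 only replicate 3 was, so sex signs were not balanced between these groups. Of 20350 genes tested, 0 passed an adjusted P of at most 0.05 with edgeR's quasi-likelihood test, a background of 0%, and no adjusted P was lower than 0.277. By unadjusted P under 0.05, 1472 genes (7.23%) passed, while DESeq2 and voom with quality weights called 98 (0.485%) and 29 (0.143%) by adjusted P. Accordingly 0 of the 8 genes passed by edgeR, DESeq2 or voom, and 3 had an unadjusted P under 0.05, Abca1, Sqle and Mylip, as did 7.23% of all genes tested. The APB5 and IgG libraries did not overlap for 4 of the 8 genes, where 15.7% of all genes tested did not overlap. These were Abca1, Srebf1 and Mylip, higher in APB5 (7.79% of all genes tested), and Sqle, lower (7.89%).

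Both synthesis enzymes were lower on average in APB5 than in IgG retinas, without passing the test. Hmgcs1 (chromosome 13, 120151915 to 120170470) had 176, 179 and 119 CPM in IgG and 119, 113 and 47.5 CPM in APB5. The groups met at IgG replicate 3 and APB5 replicate 1, and the log2 fold change was −0.76 (SE 0.34, adjusted P = 0.664 by edgeR), or −0.44 without APB5 replicate 3. Sqle (chromosome 15, 59186869 to 59203043) had 54.9, 59.0 and 52.2 CPM in IgG and 45.8, 38.7 and 23.3 CPM in APB5, with no overlap. The log2 fold change of Sqle was −0.62 (SE 0.23, adjusted P = 0.664 by edgeR), or −0.39 without APB5 replicate 3.

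Differences were smaller for the transcription factors of sterol synthesis. Srebf1 (chromosome 11, 60089913 to 60113407) had 126, 123 and 133 CPM in IgG and 152, 137 and 192 CPM in APB5, which gave a log2 fold change of 0.35 (SE 0.16) at an adjusted P = 0.664 by edgeR, and 0.19 without APB5 replicate 3. The lowest APB5 library was 137 CPM against a highest IgG library of 133 CPM. Srebf2 (chromosome 15, 82031382 to 82093201) had 101, 119 and 142 CPM in IgG and 141, 112 and 75.6 CPM in APB5, so the groups overlapped. Its log2 fold change was −0.13 (SE 0.23) with all libraries and 0.073 (SE 0.17) without APB5 replicate 3, so its direction rested on that library.

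In the LXR arm, Mylip replicates lay close together. Mylip had 28.3, 28.3 and 28.9 CPM in IgG and 36.7, 34.2 and 36.0 CPM in APB5 (chromosome 13, 45543215 to 45565501). The log2 fold change was 0.33 (SE 0.11, adjusted P = 0.664 by edgeR's test) and 0.32 without APB5 replicate 3. Mylip was also above IgG in each library of IgG+Mino and APB5+Mino. Abcg1 (chromosome 17, 31276649 to 31336969), the pump that moves cholesterol to lipoprotein particles, had 144, 134 and 102 CPM in IgG and 138, 164 and 164 CPM in APB5, and the groups overlapped (log2 fold change 0.30, SE 0.17). Nr1h2 (chromosome 7, 44199036 to 44203406), which encodes LXRβ, had 49.1, 45.3 and 68.9 CPM in IgG and 57.9, 47.7 and 60.4 CPM in APB5. Its log2 fold change was 0.038 (SE 0.19), and it was −0.041, −0.029 and −0.073 without APB5 replicate 3, IgG replicate 1 and IgG replicate 2, so it had no stable sign.

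A list of 18 further cholesterol synthesis enzymes lay on the same side as Hmgcs1 and Sqle. In APB5 against IgG, 17 of the 18 had a log2 fold change below 0, where 50.4% of all genes tested did, and the median was −0.50 against −0.0024 for all genes. When APB5 replicate 3 was left out, antibody and sex signs could not be told apart. In that fit 17 of the 18 were below 0, where 50.1% of all genes tested were, and the median was −0.29. None passed an adjusted P of 0.05 by edgeR, DESeq2 or voom, and 7 had an unadjusted P under 0.05, beside 7.23% of all genes tested. For 9 of the 18 every APB5 library was below every IgG library, where 7.89% of all genes tested were. The 2 with the lowest log2 fold change were Fdps, farnesyl diphosphate synthase, at −0.79 (SE 0.33) and Mvd, mevalonate diphosphate decarboxylase, at −0.70 (SE 0.28), for both of which the adjusted P = 0.664 by edgeR. They were −0.47 and −0.43 without APB5 replicate 3. Fdps had 57.1, 59.2 and 67.7 CPM in IgG and 49.3, 39.0 and 17.7 CPM in APB5. The exception above 0 was Pmvk, phosphomevalonate kinase, at 0.028 (SE 0.14). It was −0.081 without APB5 replicate 3, when Hsd17b7, a sterol ketone enzyme named after its values were seen, was the exception at 0.10.

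APB5 replicate 3 was the lowest of the 12 libraries for 17 of the 20 synthesis genes, counting Hmgcs1 and Sqle. The other 3 were Mvk, Pmvk and Ebp, named after their values were seen. Summed over the 18 enzymes, the level was 800.3, 832 and 816 CPM in IgG, 774, 734 and 796 CPM in IgG+Mino, 693, 643 and 379 CPM in APB5, and 784, 759 and 749 CPM in APB5+Mino. The sums of all 3 APB5 libraries were below those of the other 9. The same library was low in rod genes and high in microglia and pigment epithelium genes, and the part of these in the synthesis sum was not tested. In APB5 replicates 1 and 2 the rod sum was 60697 and 52035 CPM, against 53291 to 76011 CPM in the IgG libraries.

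**Figure D3:**
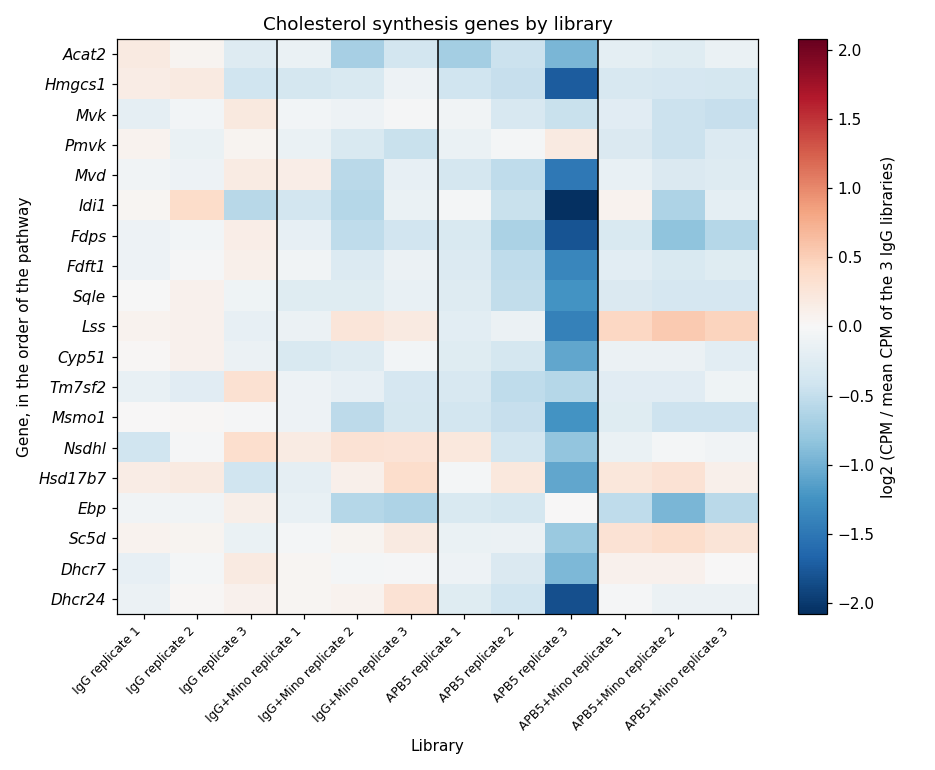
Levels of cholesterol synthesis genes (rows, in the order of the pathway) in 12 libraries (columns), as log2 of CPM over the mean CPM of the 3 IgG libraries; blue is lower and red higher, and vertical lines part the groups. APB5 replicate 3 was the lowest library for Hmgcs1 (47.5 CPM), Sqle (23.3 CPM) and Fdps (17.7 CPM), and Lss was above the IgG mean in all 3 APB5+Mino libraries.

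Genes that sense and import sterol were mixed in APB5 against IgG retinas. Of 13 genes of SREBP control, uptake and transport, 9 were below 0, as were 50.4% of all genes tested, and the median was −0.094 on the log2 scale, and without APB5 replicate 3 the median was 0.030. Stard4, a cytosolic sterol carrier, had a log2 fold change of −0.83 (SE 0.38), which became −0.48 without APB5 replicate 3. Insig1, which retains the SREBP complex in the endoplasmic reticulum, had −0.50 (SE 0.41) and −0.12 without that library.

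The LXR list of 12 partners, targets and efflux genes had a median log2 fold change of 0.53, and 0.046 without APB5 replicate 3. Apoe, whose product carries lipid between retinal cells, had 733, 873 and 973 CPM in IgG and 1180.3, 1125 and 4788 CPM in APB5, with no overlap. For Apoe the log2 fold change was 1.48 (SE 0.57, adjusted P = 0.664 by edgeR) and 0.43 without APB5 replicate 3. Apoc1, another apolipoprotein, had 0.525, 0.928 and 1.68 CPM in IgG and 0.886, 0.858 and 14.2 CPM in APB5. It was above 1 CPM only in IgG replicate 3 and APB5 replicate 3. It met the mean of 1 CPM for naming through the latter library. Its log2 fold change was 2.35 (SE 1.14) with APB5 replicate 3 and −0.25 without it. Nr1h3, which encodes LXRα, was low throughout, at 1.5, 1.84 and 3.04 CPM in IgG and 2.15, 2.12 and 3.81 CPM in APB5, with a log2 fold change of 0.35 (SE 0.38) that was 0.0072 without APB5 replicate 3.

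For the 10 fatty acid synthesis genes the median was 0.043 in APB5 against IgG and 0.00062 without APB5 replicate 3. Scd1 and Scd2, the stearoyl-CoA desaturases, had 0.68 (SE 0.45) and 0.43 (SE 0.19), or −0.10 and 0.24 without that library, so the direction of Scd1 turned with it. All 8 oxysterol and ester genes were above 0, where 49.6% of all genes tested were, with a median of 0.32. Leaving that library out, 6 of 8 were, where 49.9% of all genes tested were, with a median of 0.094. The 2 largest among those of at least 1 CPM were Lipa, lysosomal acid lipase, at 0.85 (SE 0.42) and Soat1, which esterifies cholesterol, at 0.54 (SE 0.31). Their values were 0.16 and 0.15 without APB5 replicate 3. In these 4 lists, 0 genes passed the adjusted P by edgeR, DESeq2 or voom, and 3 had an unadjusted P under 0.05, as did 7.23% of all genes tested. These were Apoe, Lpcat3 and Ch25h, the last 2 named after their values were seen, and Lpcat3 and Ch25h went from 0.83 and 1.94 to 0.28 and 0.43 without APB5 replicate 3. Replicate 3 was the only library high in Xist in APB5 and in APB5+Mino, so an adjustment for Xist draws on APB5 replicate 3. When all 12 libraries were fitted together and adjusted for their level of Xist, 1480 of all genes (6.97%) passed in this comparison, among them Hmgcs1 (adjusted P = 0.0304), Sqle (0.0163) and Apoe (0.00647) by edgeR's test. The log2 fold changes of Hmgcs1, Sqle and Srebf2 were −1.24, −0.94 and −0.44 in it. For Abca1 no P is given from it, since it draws on the contrast that chose the gene. In that fit 8 of the 18 synthesis enzymes passed, as did 7 of the 12 LXR genes, 2 of the 13 genes of SREBP control, 2 of the 8 oxysterol and ester genes and 0 of the 10 fatty acid genes. The list medians were −0.79 for synthesis and 0.84 for LXR, and Insig1 had −1.15 and Nr1h3 0.65 on the log2 scale.

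**Figure D4:**
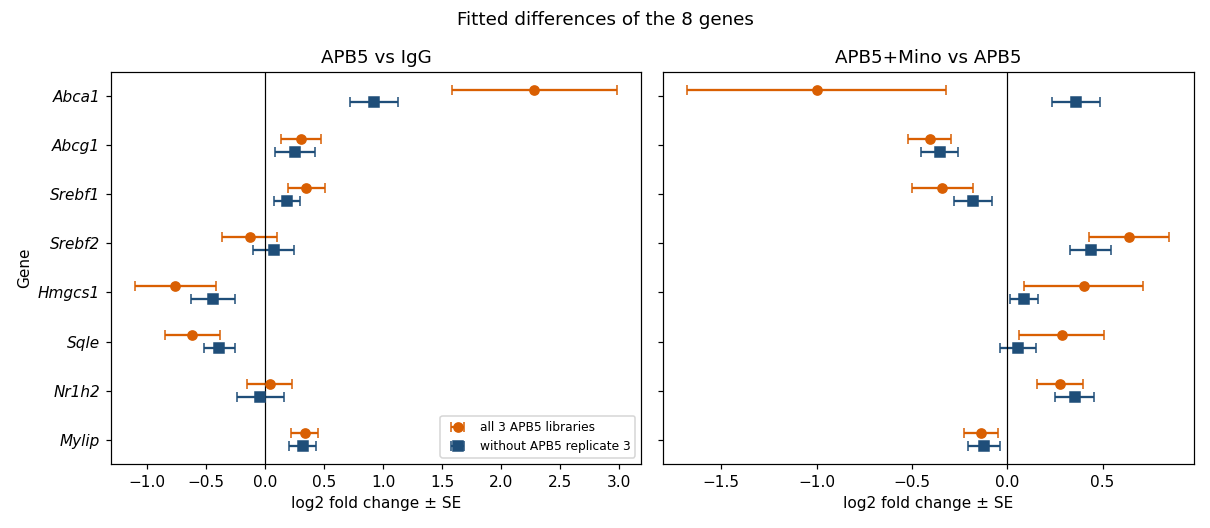
Log2 fold change ± SE (x axis) of the 8 genes (y axis) in APB5 against IgG (left) and APB5+Mino against APB5 (right), fitted with all 3 APB5 libraries (circles) and without APB5 replicate 3 (squares). Abca1 had 2.28 with that library and 0.92 without it on the left, and −1.0 and 0.36 on the right.

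The comparison of APB5+Mino with APB5 asked what minocycline changed in antibody-treated mice. Of 20281 genes tested, 977 (4.82%) passed edgeR's test at the same threshold. Libraries with the same replicate number deviated together here, and a fit blocked on that number called 0 genes, and so 0 of the members. Abca1 was not tested. Of the other 7 genes, 0 passed by edgeR's test, 2 had an unadjusted P under 0.05 (35.9% of all genes tested), and DESeq2 and voom called 2 and 3, beside 27% and 34.5% of all genes. With APB5 replicate 3 left out, 5484 genes (26.6%) passed, and 3 of the 7 with them.

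Srebf2 and Nr1h2 were higher and Abcg1 lower in APB5+Mino, each with no overlap. Srebf2 had 165, 183 and 169 CPM in APB5+Mino against 141, 112 and 75.6 CPM in APB5. This gave 0.64 on the log2 scale (SE 0.21, adjusted P = 0.0847 by edgeR) and 0.44 without APB5 replicate 3 (adjusted P = 0.0203). Abcg1 had 123, 121 and 111 CPM in APB5+Mino against 138, 164 and 164 CPM in APB5. For Abcg1 this gave −0.41 on the log2 scale (SE 0.11, adjusted P = 0.0642 by edgeR's test) and −0.35 without APB5 replicate 3 (adjusted P = 0.0266). Nr1h2 had 69.5, 63.8 and 70.1 CPM in APB5+Mino, above the 47.7 to 60.4 CPM of APB5, with 0.28 (SE 0.12, adjusted P = 0.145 by edgeR's test) and 0.35 without that library (adjusted P = 0.0345).

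The libraries of both groups also did not overlap for Hmgcs1 and Mylip, which made 5 of the 8 genes, where 46.3% of all genes tested did not overlap. Hmgcs1 had 125, 124 and 122 CPM in APB5+Mino, above the highest APB5 library of 119 CPM. Hmgcs1 had 0.40 on the log2 scale (SE 0.31, adjusted P = 0.375 by edgeR's test) and 0.089 without APB5 replicate 3. Mylip had 33.5, 33.0 and 31.6 CPM, below the lowest APB5 library of 34.2 CPM (log2 fold change −0.14, SE 0.089). Sqle overlapped, with 44.9, 43.7 and 43.6 CPM in APB5+Mino and a log2 fold change of 0.29 (SE 0.22), or 0.056 without APB5 replicate 3. Srebf1 overlapped as well, with 142, 127 and 116 CPM and −0.34 (SE 0.16), or −0.18 without it. The spread within APB5+Mino was small for both synthesis genes, with SDs of 1.49 CPM for Hmgcs1 and 0.745 CPM for Sqle.

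Of the 18 further synthesis enzymes, 15 were above 0 in APB5+Mino against APB5, where 48.5% of all genes tested were, with a median of 0.39. Setting APB5 replicate 3 aside, 13 were above 0, where 49.5% of all genes tested were, with a median of 0.14. None passed by edgeR's test, 5 had an unadjusted P under 0.05, DESeq2 and voom each called 3, and edgeR called 4 without that library. Each of these shares of the list lay below that of all genes tested (35.9%, 27%, 34.5% and 26.6%). The 2 largest were Lss, lanosterol synthase, at 0.95 (SE 0.30, adjusted P = 0.0792) and Sc5d, a sterol desaturase, at 0.61 (SE 0.17, adjusted P = 0.0663 by edgeR's test). Lss had 71.5, 77.1 and 73.3 CPM in APB5+Mino, above the 45.4, 48.7 and 20.1 CPM of APB5 and also above the 47.0 to 56.6 CPM of IgG. The log2 fold changes of Lss and Sc5d were 0.65 (adjusted P = 0.00233) and 0.43 (adjusted P = 0.00801) without APB5 replicate 3.

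In APB5+Mino against APB5, 1 of the 13 genes of SREBP control and 1 of the 10 fatty acid genes passed, beside 4.82% of all genes tested. Without APB5 replicate 3 these were 8 of 13 and 3 of 10, beside 26.6%, and voom called 7 and 4, beside 34.5%. With the replicate block, or without APB5 replicate 1 or any 1 of the APB5+Mino libraries, both counts were 0. Mbtps1, the site-1 protease that releases SREBP in the Golgi, had 136, 149 and 145 CPM in APB5+Mino against 106, 103 and 92.1 CPM in APB5. Its log2 level rose by 0.50 (SE 0.095, adjusted P = 0.0461 by edgeR). Fasn, fatty acid synthase, had 199.6, 217 and 195 CPM against 139, 132 and 125 CPM and rose by 0.61 (SE 0.10, adjusted P = 0.0447 by edgeR's test). With the replicate block their adjusted P was 0.0642 and 0.0641 by the same test of edgeR, and 0.0522 and 0.0502 with library size only. Without APB5 replicate 1 it was 0.105 for both, and it was 0.117 to 0.214 when an APB5+Mino library was left out. The 13 genes of SREBP control had a median of 0.19 and the 10 fatty acid genes −0.027, or 0.17 and 0.13 without APB5 replicate 3. Insig1 had 85.1, 97.2 and 88.3 CPM in APB5+Mino, within the APB5 range. The log2 fold change of Insig1 was 0.10 with all libraries and −0.27 without APB5 replicate 3 (adjusted P = 0.0442 by edgeR's test).

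The LXR list had a median of −0.83 on the log2 scale in APB5+Mino against APB5, with 8 of 12 genes below 0 (51.5% of all genes tested), and −0.38 with 7 of 12 below 0 (50.5% of all genes tested) without APB5 replicate 3. None passed by edgeR's test with all libraries, 8 had an unadjusted P under 0.05, DESeq2 called 6 and voom 8, and edgeR called 8 without APB5 replicate 3, where 35.9%, 27%, 34.5% and 26.6% of all genes tested were called. Apoe had 404, 364 and 444 CPM in APB5+Mino, below every APB5, IgG and IgG+Mino library. The log2 fold change of Apoe was −2.57 (SE 0.61, adjusted P = 0.0522), and −1.52 without APB5 replicate 3 (adjusted P = 0.000244 by edgeR's test). Apoc1 was low in APB5+Mino, at 0.394, 0.274 and 0.301 CPM. Apoc1 had −3.93 (SE 1.23, adjusted P = 0.0732) and Nr1h3 −1.04 (SE 0.30, adjusted P = 0.0674 by edgeR's test), or −1.34 and −0.69 without APB5 replicate 3. Members of the list did not all lie on one side, since Abcg4, a transporter related to Abcg1, had 197, 219 and 203 CPM in APB5+Mino against 133, 117 and 56.5 CPM in APB5. It was named after its values were seen. Markers of several cell types were below 0 in the same comparison, namely 14 of 14 of microglia and macrophages (median −3.30), 9 of 9 of pigment epithelium (−2.32), 8 of 8 of endothelial cells (−0.75), 6 of 6 of pericytes (−0.74) and 8 of 9 of Müller glia (−0.37). Without APB5 replicate 3 these medians were −1.52, −0.63, −0.66, −0.45 and −0.24. Of 10 rod genes 8 were above 0 (median 0.20), or 2 without that library (−0.19). Their part in the LXR list was not tested. Of the oxysterol and ester genes, Lcat, which esterifies cholesterol on lipoproteins, had −0.94 (SE 0.22, adjusted P = 0.0514) and Lipa −0.80 (SE 0.42, or −0.11 without APB5 replicate 3), in a list with a median of −0.61, or −0.071 without APB5 replicate 3. Adjusted for the level of Xist over all 12 libraries, 26.3% of all genes passed by edgeR's test, with 9 of the 18 synthesis enzymes, 8 of the 12 LXR genes, 5 of the 13 genes of SREBP control, 4 of the 10 fatty acid genes and 3 of the 8 oxysterol and ester genes. Apoe (adjusted P = 0.00263) and Nr1h3 (0.0197) were among them.

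**Figure D5:**
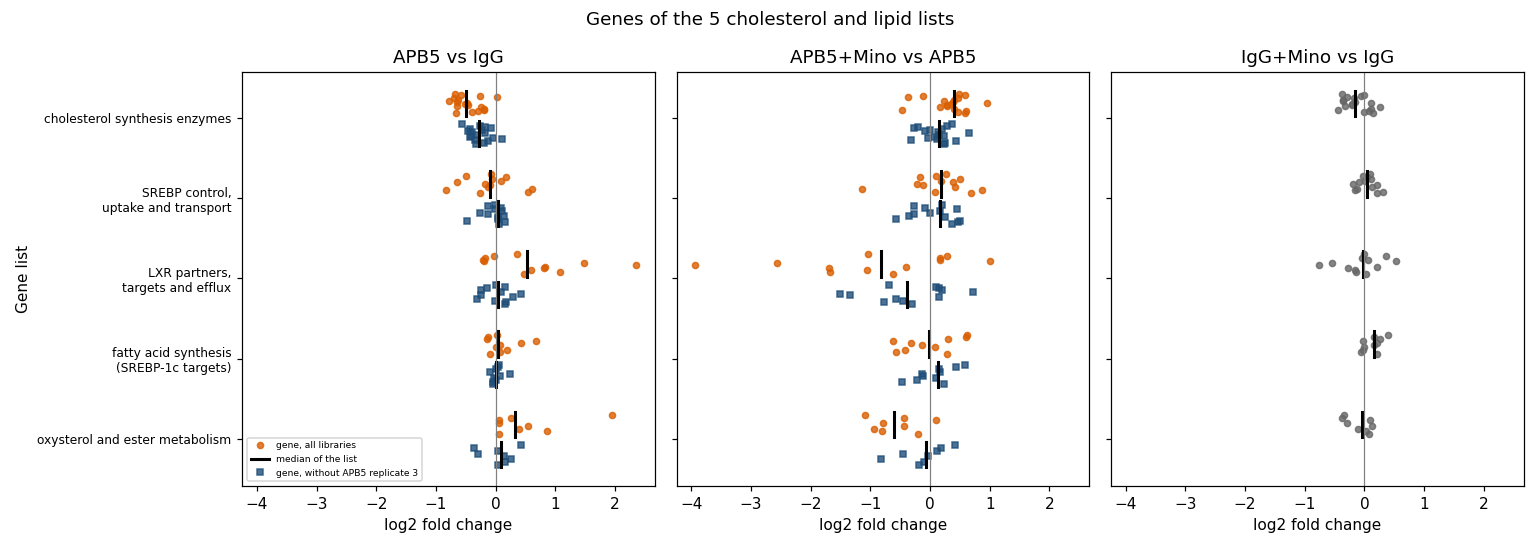
Log2 fold change (x axis, the same in all panels) of each gene of 5 lists (rows) in APB5 against IgG, APB5+Mino against APB5 and IgG+Mino against IgG, with all libraries (circles) and without APB5 replicate 3 (squares); black bars are list medians. The synthesis median was −0.50 on the left and 0.39 in the middle, and the LXR median was 0.53 and −0.83; without APB5 replicate 3 these were −0.29, 0.14, 0.046 and −0.38.

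IgG+Mino and IgG retinas differed in sex signs as well as in minocycline, so their differences cannot be assigned to either. Of 20143 genes tested, 6 (0.0298%) passed. Of the 7 members tested, 0 passed by edgeR's test, 2 had an unadjusted P under 0.05 (8.37% of all genes tested), and DESeq2 and voom called 0 and 2, beside 0.273% and 6.03% of all genes. Libraries did not overlap for 4 of the 8 genes, where 14.4% of all genes tested did not. Srebf2 had 146, 169.6 and 174 CPM in IgG+Mino, or 0.43 against IgG on the log2 scale (SE 0.14, adjusted P = 0.585 by edgeR). Mylip had 31.8, 37.7 and 35.9 CPM (log2 fold change 0.30, SE 0.12) and Srebf1 151, 142 and 135 CPM (0.17, SE 0.11). Sqle was on the other side, with 46.6, 46.3 and 49.5 CPM (−0.22, SE 0.11). Hmgcs1 had 122, 127 and 146 CPM, Abcg1 137, 149 and 157 CPM and Nr1h2 65.1, 52.8 and 50.1 CPM, all overlapping IgG. Xist separated the IgG from the IgG+Mino libraries, so an adjustment for it draws on replicate 3 of APB5 and APB5+Mino. Adjusted for the level of Xist, the log2 fold change was 0.058 for Srebf2, 0.27 for Srebf1, −0.61 for Sqle and −0.82 for Hmgcs1, and 0 of the 7 passed by edgeR's test.

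Among the other genes of the pathway, 13 of the 18 synthesis enzymes were below 0 in IgG+Mino against IgG, where 51.4% of all genes tested were, and the median was −0.16 on the log2 scale, or −0.47 when adjusted for the level of Xist. Ebp, which lies on the X chromosome, and Acat2, a sterol isomerase and an acetyl-CoA acetyltransferase, had −0.44 (SE 0.17) and −0.38 (SE 0.18). Insig1 and Nr1h3 overlapped between the groups, with log2 fold changes of −0.030 and −0.0039, or −0.74 and 0.47 with that adjustment. Apoe had 590.2, 542 and 641 CPM in IgG+Mino, below every IgG library, with −0.54 on the log2 scale (SE 0.13, adjusted P = 0.585 by edgeR), but its direction turned with the same adjustment, to 0.58. That adjustment draws on replicate 3 of APB5 (4788 CPM, against 1180 and 1125 CPM) and of APB5+Mino (444 CPM, against 404 and 364 CPM). Of the 14 microglia and macrophage markers, 13 were below 0 in IgG+Mino against IgG (51.4% of all genes tested), with a median of −0.58. An unadjusted P under 0.05 was found for 9 of them (8.37% of all genes tested). The medians for Müller glia, pigment epithelium and rods were 0.056, 0.29 and 0.0098. The part of these markers in the value of Apoe was not tested. Apoc1, at only 0.742, 0.637 and 0.427 CPM in IgG+Mino, had −0.76 (SE 0.43). Fasn and Acly, which makes acetyl-CoA for lipid synthesis, had 0.40 (SE 0.13) and 0.27 (SE 0.14). Lrp1 and Scarb1, lipoprotein receptors, had 0.31 (SE 0.16) and 0.22 (SE 0.17). Cyp27a1 and Cyp7b1, oxysterol hydroxylases, had −0.38 (SE 0.28) and −0.29 (SE 0.21). Of the 61 genes in the 5 lists, 0 passed by edgeR's test and 0 by DESeq2, 8 had an unadjusted P under 0.05 (8.37% of all genes tested), and voom with quality weights called 9 (6.03%).

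In APB5+Mino against IgG+Mino, the contrast used to choose the genes, libraries did not overlap for 3 of the 8 genes, beside 35.2% of all genes tested, and 8.09% of genes passed the adjusted P. Besides Abca1, these were Abcg1 (log2 fold change −0.32, SE 0.083) and Sqle (−0.10, SE 0.079). Adjusted for the level of Xist, the log2 fold change of Sqle turned to 0.057, and that of Hmgcs1, given below, turned to 0.15. Sqle, the squalene epoxidase, had 46.3 to 49.5 CPM in IgG+Mino and 43.6 to 44.9 CPM in APB5+Mino. Hmgcs1 (−0.089, SE 0.085), Srebf1 (−0.15, SE 0.097), Srebf2 (0.082, SE 0.089), Mylip (−0.10, SE 0.092) and Nr1h2 (0.28, SE 0.12) overlapped. The 18 synthesis enzymes had a median of −0.0062, with 9 above and 9 below 0, beside 48.9% and 51.1% of all genes tested. Apoe, Pltp and Scarb1 had −0.55 (SE 0.10), −0.60 (SE 0.12) and −0.43 (SE 0.075). Insig1 had −0.36 (SE 0.084), Npc2 −0.40 (SE 0.10), Mid1ip1 −0.46 (SE 0.093) and Nr1h3 −0.68 (SE 0.21). Lss had 0.37 (SE 0.10), Nsdhl −0.33 (SE 0.095), Mbtps1 0.32 (SE 0.079), Acaca 0.31 (SE 0.080) and Ch25h 1.18 (SE 0.32). Below 0 in this contrast, as were 51.1% of all genes tested, were 14 of 14 microglia and macrophage, 10 of 10 rod, 6 of 6 pericyte, 6 of 6 lens, 5 of 5 red blood cell, 8 of 9 Müller glia, 8 of 9 pigment epithelium, 6 of 8 endothelial and 6 of 10 inner retinal neuron genes, and the part of these in the values above was not tested.

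The difference between the APB5 effects with and without minocycline was tested as an interaction over all 12 libraries, and 3 of 21228 genes (0.0141%) passed. It contains the difference of IgG+Mino from IgG, so minocycline and sex signs cannot be told apart in it either. Of the 7 members tested, 0 passed by edgeR's test, 3 had an unadjusted P under 0.05 (17.1% of all genes tested), and DESeq2 and voom called 1 and 2, beside 4.03% and 14.9% of all genes. The lowest adjusted P among the 7 were those of Abcg1 (log2 difference −0.61, SE 0.19, adjusted P = 0.180), Mylip (−0.43, SE 0.13, adjusted P = 0.184) and Srebf1 (−0.49, SE 0.19, adjusted P = 0.233), by edgeR's quasi-likelihood test. For Hmgcs1 and Sqle the log2 differences were 0.68 (SE 0.38) and 0.52 (SE 0.26), or 0.34 and 0.27 without APB5 replicate 3. For Nr1h2 and Srebf2 they were 0.25 (SE 0.23) and 0.22 (SE 0.27), and the latter was −0.0073 without that library. The 18 synthesis enzymes had a median of 0.55, or 0.28 without that library, led by Acat2 (0.87, SE 0.24, adjusted P = 0.159 by edgeR's test). Apoe had −2.02 (SE 0.62, adjusted P = 0.180) and −0.99 without APB5 replicate 3 (adjusted P = 0.0407 by edgeR's test). Marker medians in the interaction were −2.67 for microglia and macrophages, −2.22 for pigment epithelium and −0.41 for Müller glia. The rod median was 0.23, and that of all genes −0.024. Without APB5 replicate 3 these were −1.01, −0.66, −0.30, −0.21 and −0.031 in the same order. The part of these markers in the differences above was not tested. The 12 LXR genes had a median of −0.76, or −0.31 without APB5 replicate 3. Of these 12, 0 passed by edgeR's test, beside 0.0141% of all genes tested. Without that library 1 of them passed, when 74 of all genes did. Adjusted for the level of Xist, the log2 differences of Hmgcs1, Sqle, Srebf2 and Nr1h2 were 1.39, 1.0, 0.67 and 0.12, and the list medians were 1.03 for synthesis and −1.35 for LXR. In that fit 4.61% of all genes passed, with 0 of the 7 members, 3 of the 18 synthesis enzymes and 6 of the 12 LXR genes.

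Genes whose log2 CPM followed Abca1 and Hmgcs1 most closely over the 12 libraries were ranked among 15810 genes, as a description in which libraries of one group and APB5 replicate 3 weigh heavily. For Abca1 the 5 highest Pearson r were those of 3110053B16Rik (0.968), Rtl5 (0.967), Il1r1 (0.964), Sbno2 (0.962) and Osmr (0.959). Il1r1 and Osmr encode cytokine receptors. Without APB5 replicate 3, r for these 5 was 0.881 to 0.905 over 11 libraries. Among the 5 highest for Hmgcs1 were Idi1-ps1 (0.977), Cyp51 (0.972), Sqle (0.960) and Wdr60 (0.959), and r was 0.791 to 0.922 without that library. Cyp51 encodes lanosterol demethylase, and Idi1-ps1 is a pseudogene whose reads may be shared with Idi1, an isomerase of the same pathway. Between the members, Hmgcs1 and Sqle had r = 0.960 and 0.821 without APB5 replicate 3, and Abca1 and Sqle −0.902 and −0.676.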

How the data were processed

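RNA was measured in 12 retinal libraries, 3 per group, grouped by the labels. The authors made stranded poly-A libraries and counted reads with the DRAGEN RNA pipeline on mm39 with NCBI annotation. Its version and whether counting used the strand are not given in the sources used here. The deposited table gives raw counts per gene. Its 3 repeated columns were not used, nor were the authors' result tables, which hold a log2 fold change, its standard error, p-values and group means per gene or transcript.

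CPM and tests were computed here in R 4.3.3 with edgeR 4.0.16, by the quasi-likelihood test on the 2 groups compared, with TMM, filterByExpr, a prior count of 2 and Benjamini-Hochberg adjustment over all genes tested. A gene passed at an adjusted P of at most 0.05. Tests were two-sided and were checked on simulated data. DESeq2 1.42.0 and voom with quality weights (limma 3.58.1) were alternatives, with others listed in the closing section. No interval other than the SE or SD is given. Exons and positions are from GENCODE vM39 on GRCm39.

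Members, lists, tests and alternatives were chosen with earlier results of these data known, from general knowledge. Named were the 8 genes and, per list and comparison, up to 5 genes past the adjusted P by P or otherwise the 2 of at least 1 CPM with the largest change. Insig1, Apoe, Nr1h3, Pdgfrb, the 5 genes most like Abca1 and Hmgcs1 each, sex-linked genes and each marker list's most abundant gene were also to be named. Some of the genes this rule names are not reported here. Markers listed were of microglia and macrophages, Müller glia, pigment epithelium, rods, inner retinal neurons, endothelial cells, pericytes, red blood cells and lens. No replicate pair matched within sampling noise (chi-square over genes of 12.5 to 344 per gene). For APB5+Mino against APB5, deviations of libraries with the same replicate number correlated by 0.116 to 0.169 in all 3 pairs, and by −0.132 to 0.013 otherwise, so the numbers were taken to pair them. The labels give no pairing. Replicate 3 was the only library high in Xist in both groups, and the part of this in the correlations was not tested. In the other comparisons at least 1 pair was under 0.1.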

Additional observations from a re-analysis of the deposited data

How the results depend on the processing

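Other settings tried were DESeq2, voom with quality weights, RLE factors, library size only, robust dispersions, no count filter, a minimum of 10 counts per library, a joint fit of the 12 libraries, a block for the replicate number, a covariate for the level of Xist, a fold threshold and leaving out each library. Dropping both libraries high in Xist was added for APB5+Mino against APB5 after seeing the data. Of 688 values of the 8 genes under these settings, 22 turned sign (11 tested and 11 untested) and 19 passed the threshold that the reported value missed. The cause of the changes below was not tested. The 8 genes had at least 950 counts in each library, and each group held 3 libraries.

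For APB5 against IgG, where 0 genes passed, the count was 98 with DESeq2, 5 with no count filter, 7 in the joint fit, 1480 with the Xist covariate and 29 with voom, and 0 to 21 with each library left out, the 21 without APB5 replicate 3. Of the 8 genes, 3 passed with the Xist covariate and 0 to 0 with a library left out. Abca1 was among the 3, but that fit draws on the contrast that chose it, so its call is no test. For APB5+Mino against APB5, where 977 passed (565 higher, 412 lower), the count was 5 with library size only (0 higher, 5 lower), 5128 with DESeq2, 1631 at the count minimum, 4463 in the joint fit, 5584 with the Xist covariate (2593 higher, 2991 lower), 6999 with voom, 336 with the fold threshold and 1900 without the libraries high in Xist. It was 0 to 5484 with a library left out, with 0 without any 1 of the APB5+Mino libraries, 1 without APB5 replicate 1, 4185 without APB5 replicate 2 and 5484 without APB5 replicate 3. Of 7 members, 2, 1, 2 and 3 passed with DESeq2, the joint fit, the Xist covariate and voom, and 0 to 3 with a library left out. With library size only, the median log2 fold change of all genes was −0.11 in this comparison.

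With the replicate block, 0 genes and 0 members passed in APB5+Mino against APB5. In APB5+Mino against IgG+Mino, where the numbers were not taken to pair the libraries, the blocked count was 4045 against 1621. The block changed no other count by over 1.5 times and no other call of a member.

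For IgG+Mino against IgG, where 6 passed, the count was 55 with DESeq2, 16 with no count filter, 1 at the count minimum, 0 in the joint fit, 0 with the Xist covariate and 1214 with voom. It was 6 to 13 with a library left out, the 13 without IgG replicate 3, while 2 members passed with voom and 0 to 0 with a library left out. For APB5+Mino against IgG+Mino it was 3532 with DESeq2, 0 in the joint fit, 0 with the Xist covariate, 4942 with voom, 246 with the fold threshold and 0 to 3358 with a library left out (3358 without IgG+Mino replicate 1, 5 without its replicate 3, and 577, 0 and 2 without APB5+Mino replicates 1, 2 and 3). For the interaction, where 3 passed, it was 717 with DESeq2, 34 with no count filter, 979 with the Xist covariate, 3154 with voom and 0 to 125 with a library left out (125 and 74 without APB5 replicates 2 and 3, and 36 without IgG replicate 3), and 1 and 2 members passed with DESeq2 and voom.

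Some log2 fold changes turned sign, mostly small ones other than those of Abca1. Abca1, untested, was −1.0 in APB5+Mino against APB5 but 0.27 with voom, 0.41 without the libraries high in Xist and −1.41 to 0.36 with a library left out. In the interaction it was −1.02 but 0.33 with voom and −1.43 to 0.32 with a library left out, and in both it turned without APB5 replicate 3. In IgG+Mino against IgG it was 0.035 but −0.054 with library size only, −0.030 with voom, 1.34 with the Xist covariate and −0.11 to 0.18 with a library left out. In APB5+Mino against IgG+Mino, the Xist covariate moved Abca1 from 1.25 to 0.91, Hmgcs1 from −0.089 to 0.15 and Sqle from −0.10 to 0.057. In APB5 against IgG, Srebf2 was 0.17 with voom, Fasn −0.054 with the Xist covariate and Mbtps1 0.045 with voom. With a library left out, Srebf2 ranged from −0.35 to 0.073, Nr1h2 from −0.073 to 0.23, Fasn from −0.078 to 0.095 and Mbtps1 from −0.13 to 0.0071. In APB5+Mino against APB5, Insig1 was −0.20 with voom, −0.26 without the libraries high in Xist and −0.27 to 0.36 with a library left out. In IgG+Mino against IgG, Nr1h2 was −0.031 with library size only, Apoe 0.58 with the Xist covariate, and Nr1h3 0.0045 with RLE factors, 0.0045 with DESeq2, 0.047 with the replicate block, 0.47 with the Xist covariate and 0.21 with voom. With a library left out there, Nr1h2 ranged from −0.088 to 0.24, Insig1 (−0.74 with the Xist covariate) from −0.20 to 0.073 and Nr1h3 from −0.20 to 0.33. In the interaction, Srebf2 was −0.13 with voom and −0.0073 to 0.44 with a library left out.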
